A study of Homo sapiens with 3 samples.

Results

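The genes described here were 37 genes of glucose uptake, glycolysis, lactate metabolism, pyruvate dehydrogenase control and the pentose phosphate pathway, out of 20162 protein-coding genes of the human annotation on hg19. They were listed by name for their place in these pathways, and the rule uses no measured value. Chromatin of cross-linked MDA-MB-231 cells, an established human triple-negative breast cancer line, was immunoprecipitated with an antibody to MAX or to BMAL1 and sequenced. The labels name no other treatment. There was 1 library for each antibody and 1 input library, all from this line, so no value has a replicate. The study asked whether MAX sits at the same genomic sites as the clock factor BMAL1. The MAX list held 13650 peaks called from 11545865 tags, and the BMAL1 list 756 peaks from 13866783 tags. Both lists were called against an input of 29308882 tags.

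Glycolysis splits glucose into pyruvate and yields ATP, lactate dehydrogenase turns pyruvate into lactate, and pyruvate dehydrogenase passes it to the mitochondria. The pentose phosphate pathway makes NADPH and ribose phosphate from the same sugar. Many tumor cells take up much glucose and release lactate, and genes of this pathway are textbook targets of MYC. MYC is a partner with which MAX binds the E-box CACGTG. MAX has other partners, and the paper describes the repressor MNT as one that acts with it at genes with E-boxes. No library here was made with an antibody to MYC or MNT, so the partner of MAX at a peak is not known. BMAL1 with its partner CLOCK binds the same E-box.

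A peak was counted at a promoter when its summit lay within 1 kb of any annotated transcription start site (TSS) of a gene, coding or not, and in the gene body when the summit lay inside the gene and over 1 kb from every TSS. The height of a peak is its fold enrichment, the number of extended fragments stacked at the summit (the pileup) divided by the local input background. Its 95% interval here is the exact Poisson interval of the pileup, which covers counting error only and takes the background as known.

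The sequences shown first are the sites listed for both factors, at the LDHA promoter and in a PFKFB3 intron, then the promoter peaks of RPIA and PFKFB3 that follow LDHA in height, the lower of the E-box peaks of PFKFB3, the peak shared by PGK1 and ATP7A, and the PDK1 peak with the lowest fold enrichment among the members, which has no E-box. They are hg19 reference sequence read 5′ to 3′ along the strand of the gene, and capitals mark each E-box.
LDHA promoter (chr11:18415890-18416058, plus strand): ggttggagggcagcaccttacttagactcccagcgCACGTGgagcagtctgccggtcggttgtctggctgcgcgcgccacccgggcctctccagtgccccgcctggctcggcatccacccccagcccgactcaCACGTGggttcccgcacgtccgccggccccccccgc
PFKFB3 intron (chr10:6261148-6261223, plus strand): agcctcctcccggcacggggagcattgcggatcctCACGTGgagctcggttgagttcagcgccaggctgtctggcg
RPIA promoter (chr2:88991299-88991374, plus strand): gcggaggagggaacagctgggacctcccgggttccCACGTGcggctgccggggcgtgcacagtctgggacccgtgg
PFKFB3 promoter, higher peak (chr10:6244752-6244827, plus strand): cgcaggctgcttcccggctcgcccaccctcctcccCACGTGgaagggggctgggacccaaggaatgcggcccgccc
PFKFB3 promoter, lower peak (chr10:6187337-6187412, plus strand): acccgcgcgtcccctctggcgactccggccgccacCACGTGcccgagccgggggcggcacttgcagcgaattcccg
PGK1 and ATP7A promoter (chrX:77166017-77166092, plus strand): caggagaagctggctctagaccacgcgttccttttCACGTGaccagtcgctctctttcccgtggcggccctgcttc
PDK1 promoter, lower peak (chr2:173420537-173420667, plus strand): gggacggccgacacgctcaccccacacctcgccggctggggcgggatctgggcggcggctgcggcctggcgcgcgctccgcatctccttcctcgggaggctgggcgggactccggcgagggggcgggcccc

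MAX was listed at the promoter of 28 of the 37 genes (75.7%), and BMAL1 at 1 of them, LDHA. Among all protein-coding genes the MAX share was 36.3% (7310 of 20162) and the BMAL1 share 1.85% (372 genes), so the MAX count lay well above the background share and the BMAL1 count near it. LDHA was also the only member with both factors (2.7%, against 1.76% of all genes). The 28 genes carried 40 MAX promoter peaks, and 11 genes had 2 or more of them (29.7%, beside 5.94% of all protein-coding genes). The fold enrichment of the 40 peaks had its median at 11.4, with 8.11 and 15.6 as quartiles (range 5.36 to 25.4), and the 7285 MAX promoter peaks of all protein-coding genes a median of 10.2, with 8.21 and 13.2 as quartiles (range 3.38 to 60.8). The lower quartiles were thus alike and the upper one was higher among the members, whose median lay above 61.9% of all those peaks. When each bound gene was taken by its strongest promoter peak, the median was 13.9 over the 28 genes and 10.8 over the 7310, and 18 of the 28 (64.3%) were above the latter. Each further peak of a gene can only raise its strongest value. Of the bound members 39.3% had 2 or more promoter peaks, against 16.4% of all bound genes. The part of peak number in these medians was not tested.

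**Figure D1:**
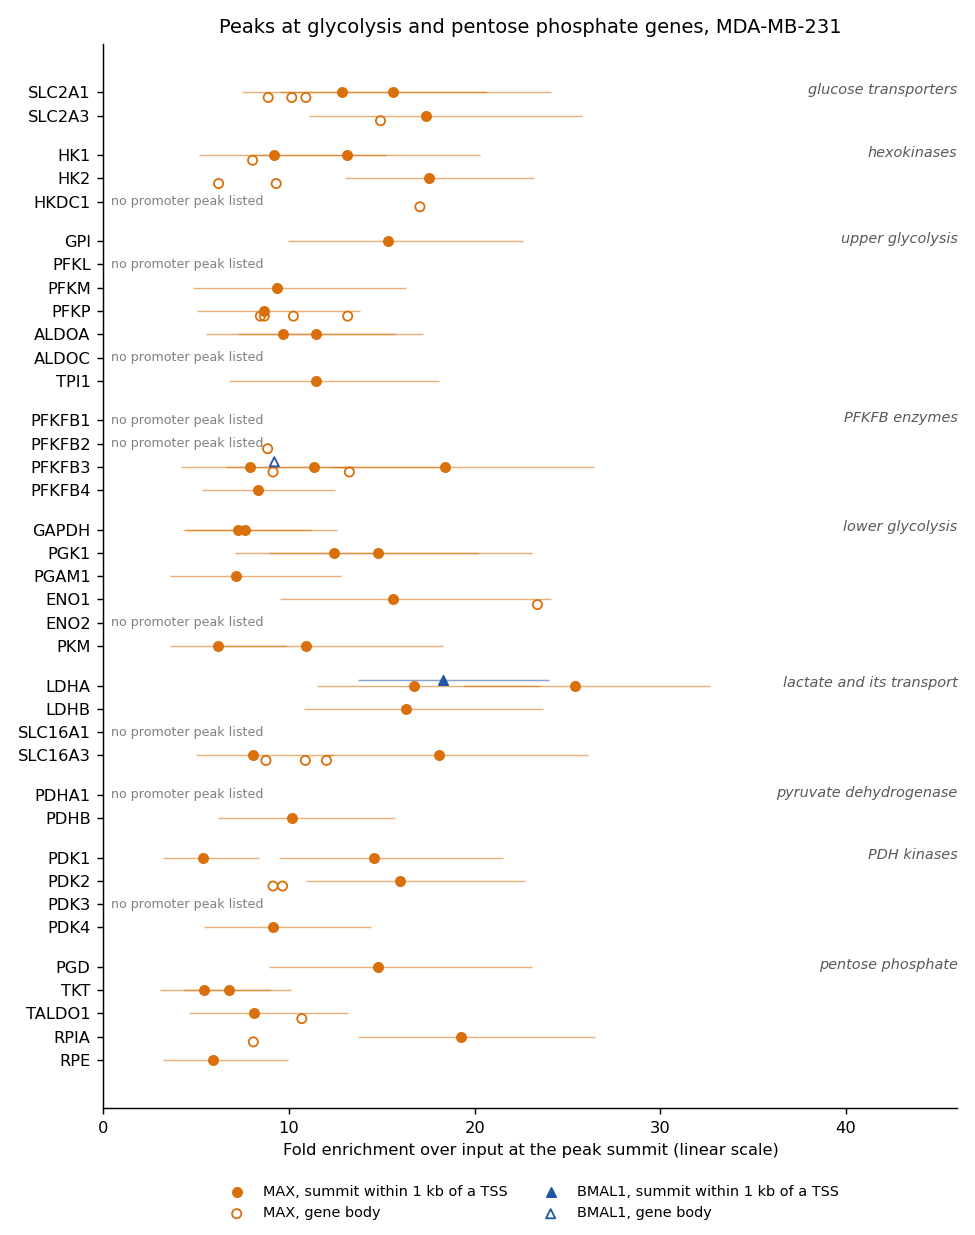
Fold enrichment over input (linear axis) of every MAX and BMAL1 peak at the 37 genes, grouped by role. Filled symbols are promoter peaks with their 95% Poisson intervals, open symbols are gene-body peaks; MAX is listed at 28 promoters, from 5.36 to 25.4, and BMAL1 at 1.

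Both glucose transporters carried MAX. At SLC2A1, which encodes the transporter GLUT1, 1 summit lay 1 bp from a TSS and 26 bp from the canonical one, with a fold enrichment of 15.6 (interval 9.52 to 24.1). A further SLC2A1 peak of 12.8 (7.48 to 20.6) had its summit 201 bp from an internal TSS, 15429 bp downstream of the canonical one. At SLC2A3, which encodes GLUT3, the promoter peak reached 17.4 (11.1 to 25.8) and its summit was 34 bp from the nearest TSS and 82854 bp upstream of the canonical one. No promoter peak was listed at the canonical TSS of SLC2A3 itself.

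Of the hexokinases, which phosphorylate glucose as it enters the cell, HK1 and HK2 carried MAX and HKDC1 did not. The HK2 peak rested on 50 fragments, the second highest promoter pileup of the members after LDHA, and had a fold enrichment of 17.6 (13 to 23.2). Its summit was 265 bp upstream of an annotated TSS and 778 bp downstream of the canonical one, with an E-box 74 bp away. HK1 had lower peaks of 13.1 (8.01 to 20.3) and 9.2 (5.15 to 15.2) on either side of its canonical TSS.

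In upper glycolysis, 5 of 7 genes carried MAX and no summit of theirs had an E-box in its 200 bp window. GPI, the isomerase that makes fructose phosphate, was the highest at 15.3 (9.92 to 22.6), with its summit 7 bp from the nearest TSS and 5616 bp upstream of the canonical one. ALDOA, the main aldolase, had peaks of 11.4 (7.26 to 17.2) and 9.67 (5.53 to 15.7), and TPI1, which interconverts the triose phosphates, had 1 peak of 11.4 (6.79 to 18.1). The phosphofructokinases, which catalyze the committed step, were lower or not listed. PFKM had 9.35 (4.83 to 16.3) on 12 fragments, PFKP had 8.63 (5.03 to 13.8), and PFKL had no promoter peak. These intervals overlap one another, so the order within this group is not resolved at this depth. ALDOC, the aldolase of brain, also had no promoter peak.

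The PFKFB enzymes make and degrade the fructose bisphosphate that activates phosphofructokinase, and PFKFB3 carried more MAX promoter peaks than any other member. Its 3 promoter peaks lay at 3 separate start regions, 57515, 39000 and 115 bp upstream of the canonical TSS. Their fold enrichments were 7.91 (4.21 to 13.5), 11.3 (6.6 to 18.1) and 18.4 (12.3 to 26.4) in that order, so the peak next to the canonical TSS was the highest, although its interval overlaps the others. The outer and the canonical peaks each had an E-box within 10 bp of the summit, as printed above, and the middle peak had none. PFKFB4 had a single peak of 8.34 (5.29 to 12.5). PFKFB1 and PFKFB2 had none.

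In lower glycolysis, all genes but ENO2 (5 of 6) carried MAX. ENO1, the enolase of most tissues, had a promoter peak of 15.6 (9.52 to 24.1) that was 1762 bp long and held 5 E-boxes, 3 of them in the 200 bp at the summit. PGK1, which makes ATP from bisphosphoglycerate, had peaks of 14.8 (8.92 to 23.1) and 12.4 (7.1 to 20.2). The higher one lies 193697 bp upstream of the canonical TSS and counts for PGK1 through an annotated transcript that starts 188 bp away. It is nearer to the TSS of ATP7A, a copper transporter, at 139 bp. The lower one lies 308 bp upstream of the canonical PGK1 TSS. PKM, the pyruvate kinase gene, had peaks of 10.9 (5.96 to 18.3) and 6.16 (3.59 to 9.86). GAPDH, which oxidizes glyceraldehyde phosphate, had low peaks of 7.65 (4.28 to 12.6) and 7.25 (4.43 to 11.2). PGAM1, the phosphoglycerate mutase, had 7.16 (3.57 to 12.8) on 11 fragments, the fewest of any member promoter peak, with its summit in a non-coding exon, 32 bp from the nearest TSS and 1375 bp downstream of the canonical one.

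LDHA, the lactate dehydrogenase subunit that favors lactate formation, held the highest MAX peak of the 37 genes. At chr11:18415579-18416481, a peak that spans the start of the gene (chr11:18416107-18429972, plus strand), MAX reached 60 fragments and a fold enrichment of 25.4 (19.4 to 32.7), above 98.1% of all MAX promoter peaks. The summit was 149 bp upstream of the nearest TSS. A further LDHA peak of 16.8 (11.5 to 23.5) lay inside the first part of the gene, 1435 bp from the canonical TSS, with no E-box in its window. LDHB, the other subunit, had 16.3 (10.8 to 23.7). SLC16A3, which encodes the lactate exporter MCT4, had 18.1 (12 to 26.1) with its summit 19 bp from the nearest TSS and 11089 bp upstream of the canonical one, and 8.08 (5 to 12.4) further upstream, 984 bp from the nearest TSS and so just inside the 1 kb limit. SLC16A1, which encodes the transporter MCT1, had no promoter peak.

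At pyruvate dehydrogenase, the gene of the beta subunit, PDHB, had a peak of 10.2 (6.2 to 15.7) with an E-box 24 bp from its summit, and the gene of the alpha subunit, PDHA1, had none. Among the kinases that switch this enzyme off, PDK2 had 16 (10.9 to 22.7) and PDK4 had 9.14 (5.42 to 14.4). PDK1 had an unequal pair of peaks. The one 133 bp upstream of a TSS had 19 fragments over a high local background of 3.54 and the lowest fold enrichment of the members, 5.36 (3.23 to 8.37), and the one 127 bp downstream of another TSS had 14.6 (9.44 to 21.5) with an E-box in its window. The intervals of that pair do not overlap. PDK3 had no promoter peak.

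All 5 pentose phosphate genes carried MAX, with a wide range of heights. RPIA, the ribose phosphate isomerase, had 19.3 (13.7 to 26.5) on 38 fragments, above 93.6% of MAX promoter peaks, with an E-box 42 bp from a summit that lies in its coding exon. The TSS of EIF2AK3, a kinase of the unfolded protein response, is 258 bp from the same summit, against 103 bp for RPIA. PGD, which produces NADPH in the oxidative branch, had 14.8 (8.92 to 23.1). TALDO1, the transaldolase, had 8.12 (4.64 to 13.2). TKT, the transketolase, had 6.77 (4.34 to 10.1) and 5.44 (3.04 to 8.97), 768 and 744 bp from the nearest TSS. RPE, the epimerase, had 5.92 (3.24 to 9.93). The intervals of RPIA and of RPE do not overlap.

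BMAL1 was listed at 2 places in these genes. At the LDHA promoter its summit had 52 fragments and a fold enrichment of 18.3 (13.7 to 24), which ranked 110 of the 756 BMAL1 peaks and lay above 83.9% of the BMAL1 promoter peaks. The summit was 91 bp upstream of the nearest LDHA TSS and 58 bp downstream of the MAX summit, inside the MAX peak. The LDHA window printed above holds 2 E-boxes. The MAX summit was 30 bp from the upstream one (18415925 to 18415930), and the BMAL1 summit was 10 bp from the downstream one (18416023 to 18416028). How closely a summit marks the bound site was not measured here, so which E-box each factor occupied cannot be told apart. The other BMAL1 peak was in an intron of PFKFB3, 16278 bp from the canonical TSS, with 17 fragments and a fold enrichment of 9.21 (5.37 to 14.7). There the MAX peak had 18 fragments and 9.14 (5.42 to 14.4), the summits were 31 bp apart, and both windows hold the same E-box, at 12 bp for BMAL1 and 44 bp for MAX. In the gene bodies of all protein-coding genes, a BMAL1 peak was listed for 218 (1.08%), against this 1 of 37. Of the 40 MAX promoter peaks of the members 1 (2.5%) overlapped a BMAL1 peak, and of all MAX promoter peaks 296 (4.06%) did.

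The 9 genes with no MAX promoter peak at this depth were HKDC1, PFKL, ALDOC, PFKFB1, PFKFB2, ENO2, SLC16A1, PDHA1 and PDK3. For most of them a close relative in the same step was bound, as with HK2 for HKDC1, PFKP and PFKM for PFKL, ALDOA for ALDOC, ENO1 for ENO2 and SLC16A3 for SLC16A1. They fell into a near and a far group. The nearest MAX summit to a TSS was 1660 bp away at PFKFB2, 1845 bp at PFKFB1, 2481 bp at HKDC1 and 4701 bp at PFKL. It was 16143 bp away at ENO2, 22121 bp at ALDOC, 71897 bp at SLC16A1, 168318 bp at PDK3 and 316386 bp at PDHA1. Of the 9, PFKFB1, PDHA1 and PDK3 are on chromosome X, where 17.3% of all protein-coding genes had a MAX promoter peak (150 of 869). PGK1 is the fourth member on that chromosome and was bound. The promoter of SLC16A1 has an E-box and a CpG observed to expected ratio of 1.08, the highest of the 37 genes, and still had no listed peak within 1 kb.

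**Figure D2:**
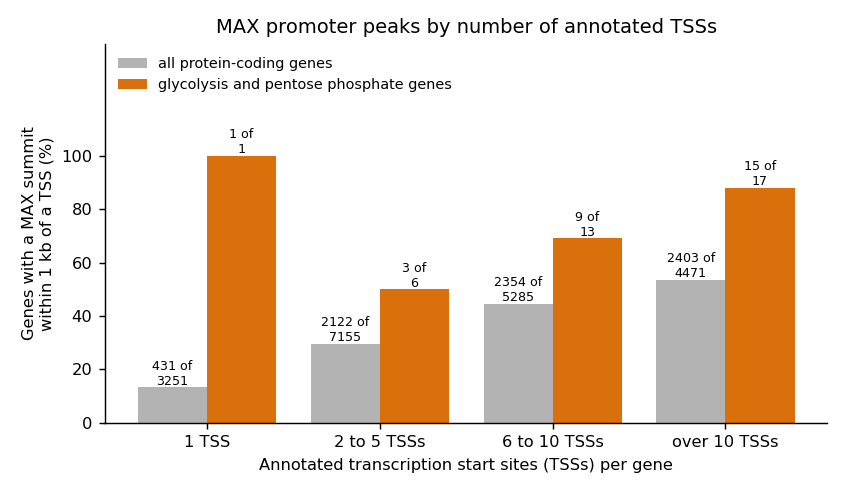
Percent of genes with a MAX summit within 1 kb of a TSS, by the number of annotated TSSs of the gene, for all protein-coding genes (gray) and the 37 genes (orange); counts stand above the bars. The share over all genes climbs from 13.3% at 1 TSS to 53.7% at over 10, and 17 of the 37 genes are in that last class.

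The 37 genes have more annotated TSSs than the average gene, with a median of 10 against 5, and each TSS adds to the sequence in which a summit is counted. Among protein-coding genes with over 10 TSSs, 2403 of 4471 (53.7%) had a MAX promoter peak, beside 15 of 17 members (88.2%). With 6 to 10 TSSs the share was 44.5% over all genes and 9 of 13 (69.2%) among the members, and with 2 to 5 TSSs it was 29.7% and 3 of 6. RPIA is the only member with 1 TSS, and it was bound, against 13.3% of such genes. All 11 members with 2 or more promoter peaks have over 5 TSSs. Of them 7 are among the 17 with over 10, where 11.4% of all such genes had 2 or more. CpG content moved with the result as well. A CpG observed to expected ratio over 0.6 in the 300 bp canonical promoter was found in 31 of 37 members (83.8%) and 67.5% of all genes, and within that class MAX was listed for 25 of 31 members (80.6%) and for 49.2% of all genes. In the class up to 0.6 it was listed for 3 of 6 members, SLC2A3, PFKM and LDHB, and for 10.8% of all genes. The part of TSS number and CpG content in the count was not tested.

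**Figure D3:**
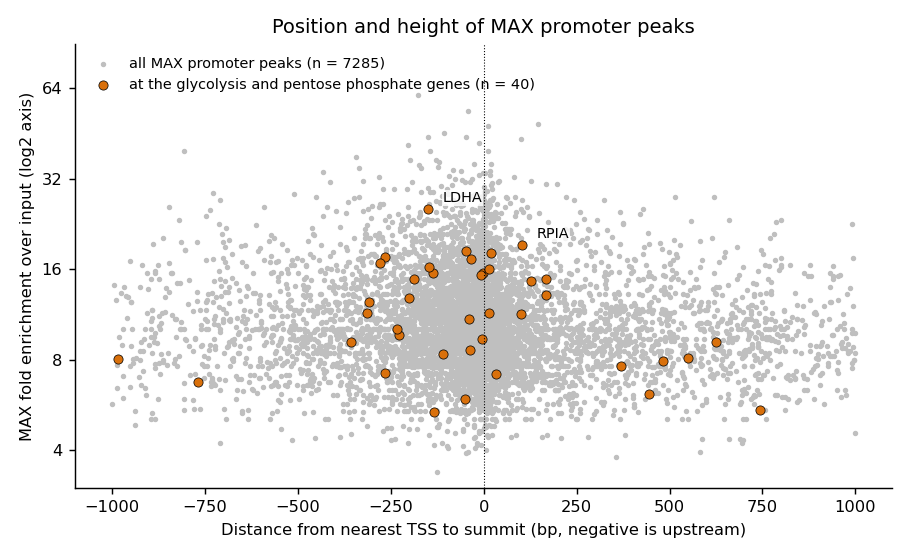
Distance of the summit from the nearest TSS (bp, negative upstream) against MAX fold enrichment (log2 axis), for all 7285 MAX promoter peaks (gray) and the 40 of the 37 genes (orange). For the orange points the TSS is one of the member gene itself. Of the 40, 29 lie within 300 bp of a TSS, and LDHA at 25.4 and RPIA at 19.3 are the highest.

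The promoter summits of the members lay a median of 158 bp from the nearest TSS, against 112 bp over all MAX promoter peaks, and 29 of 40 (72.5%) were within 300 bp, against 74.8%. Upstream of the nearest TSS were 25 of the 40 (62.5%), against 58.1%. In these comparisons a member summit was measured to the TSSs of the member itself. Over all peaks, the nearest TSS of any protein-coding gene was used, which can only shorten the distance. Of the 28 bound genes, 24 had a summit within 1 kb of the canonical TSS, and GPI, PGAM1, SLC16A3 and SLC2A3 had summits only at other TSSs. By annotation, 20 summits were in an intron, 10 outside the gene, 8 in a UTR exon, 1 in a coding exon (RPIA) and 1 in a non-coding exon (PGAM1).

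The E-box CACGTG, which reads the same on both strands, was present in the 200 bp at 11 of the 40 member promoter summits (27.5%, Wilson 95% interval 16.1% to 42.8%). Over all MAX promoter summits the share was 20.5% (1493 of 7285), which lies inside that interval. In 200 bp windows at the canonical TSS it was 1 of 37 members (2.7%) and 5.66% of all genes, and at BMAL1 promoter summits of all genes it was 78.5%. The 11 peaks belonged to 10 genes, HK2, PFKFB3 with a pair of them, PGK1, ENO1, LDHA, LDHB, PDHB, PDK1, PDK2 and RPIA. The nearest E-box was a median of 30 bp from their summits, against 34 bp over all promoter peaks with one. Wider windows held more of them. Within 1 kb of any TSS, 30 of the 37 genes (81.1%) had at least 1 E-box, among them 24 of the 28 bound genes (85.7%) and 6 of the 9 others (66.7%). Over all protein-coding genes that share was 51.5%, with 63.2% of the bound and 44.8% of the others. The sequence searched grows with the number of TSSs, so these shares do not compare like amounts of sequence. The median number of TSSs was 10 for the 37 genes and 5 for all protein-coding genes, with 8 for the bound and 4 for the others. The part of TSS number in these shares was not tested.

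**Figure D4:**
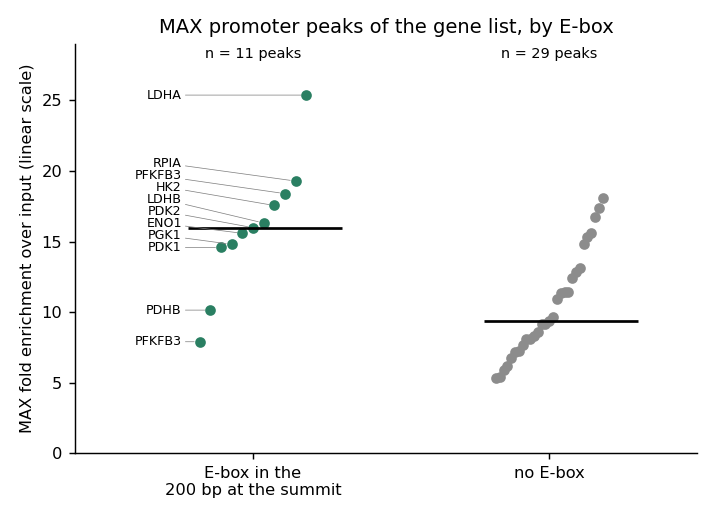
MAX fold enrichment over input (linear axis) of the 40 promoter peaks, split by whether the 200 bp at the summit holds an E-box; points are peaks in order of height and lines are medians. The 11 peaks with one have a median of 16 and the 29 without one 9.35.

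Member peaks with an E-box at the summit tended to be the higher ones. Their median fold enrichment was 16 (range 7.91 to 25.4, 11 peaks), and that of the others 9.35 (range 5.36 to 18.1, 29 peaks). Over all MAX promoter peaks the medians were 12.5 with an E-box and 9.76 without. The groups overlapped among the members. PFKFB3 and PDHB held the lowest peaks with an E-box, at 7.91 and 10.2, and SLC16A3 and SLC2A3 the highest without one, at 18.1 and 17.4. Other forms of the motif were found at member promoter summits in shares close to those of the whole list. CACGCG was found at 7 of 40 (17.5%) against 18.7%, the E-prime box CACGTT, counted on both strands, at 2 (5%) against 6.53%, and CATGTG at 4 (10%) against 9.06%. The Wilson interval of each of these member shares contains the share of the whole list. A pair of E-boxes with 5 bases between them was at 0 of the 63 MAX peaks of the members and at 6 of all 13650.

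In the gene bodies, MAX was listed for 13 of the 37 genes (35.1%), against 12.3% of all protein-coding genes, with 23 peaks in all. A longer gene gives more sequence in which a summit is counted. The median gene length was 33541 bp for the 37 genes and 27220 bp for all protein-coding genes. The part of gene length in this count was not tested. The 23 gene-body peaks had a median fold enrichment of 9.65 (range 6.21 to 23.4). Over the 3092 gene-body peaks of the list that lay over 1 kb from every TSS of any protein-coding gene, it was 9.34. The sets differ, since member peaks were kept away only from the TSSs of their own gene. The peaks near the TSSs of YOD1 and CSNK1D, described below, thus count only among the members. For 2 genes, HKDC1 and PFKFB2, the gene body was the only place with a MAX peak (5.41%, against 6.71% of all genes). The HKDC1 peak had a fold enrichment of 17.1 (11.2 to 24.8) and lay in an intron 2481 bp from the TSS, with an E-box 48 bp from the summit. The PFKFB2 peak of 8.85 lies 407 bp from the TSS of YOD1, a deubiquitinase gene. The highest gene-body peak was in a UTR exon of ENO1, with 30 fragments over the genome-wide background of 1.28 and a fold enrichment of 23.4 (15.8 to 33.4). It lay 4791 bp from the canonical TSS, above 97.1% of the MAX promoter peaks, with no E-box in its window, and was higher than the ENO1 promoter peak of 15.6, although their intervals overlap. PFKP had the most gene-body peaks, 4, from 8.46 to 13.2. Their intervals overlap that of its promoter peak of 8.63 (5.03 to 13.8). The HK2 peaks in the gene body had 44 fragments each but only 9.31 and 6.21 in fold enrichment, over local backgrounds of 4.73 and 7.09, well above the 2.85 at the HK2 promoter. One of the 3 SLC16A3 gene-body peaks, at 8.76, is 112 bp from the TSS of CSNK1D, which encodes a clock kinase.

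A further 58 genes of glucose metabolism, isoforms for other tissues, gluconeogenesis, the mitochondrial pyruvate carrier and additional pentose phosphate enzymes, were counted by the same rule. MAX was listed at the promoter of 24 of them (41.4%), near the 36.3% of all genes. BMAL1 was listed at 3 (5.17%), against 1.85% of all genes, a difference that rests on 3 genes and was not tested. The 3 with BMAL1 were PC, the pyruvate carboxylase of gluconeogenesis, with a BMAL1 fold enrichment of 22.8 (17.2 to 29.8), PDP2, a phosphatase that opposes the PDH kinases, with 19.4, and G6PC3, a glucose phosphatase, with 19.2. Each overlapped a MAX peak. In MAX, the 5 highest were PC at 33.9, G6PC3 at 23.8, the glucose transporter SLC2A4 at 22.8, the pyruvate carrier subunit MPC1 at 19.7 and the transporter SLC2A8 at 16.4. LDHA at 25.4 stood between PC and G6PC3, and its interval overlaps those of both.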

How the data were processed

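The data were 2 peak lists from MDA-MB-231 cells, 1 for BMAL1 and 1 for MAX, with 1 library for each antibody. The authors aligned reads on hg19 with BWA 0.6.2 and called peaks against the shared input with MACS 2.0.9, per the labels and file headers. The coverage signal deposited by the authors is the unscaled pileup of tags extended to 300 bp at each summit, so it grows with depth. The fold enrichment deposited by the authors is the ratio of that pileup to the local input background, whose genome-wide floor was 1.28 for MAX and 1.54 for BMAL1. The −log10 p-value deposited by the authors was used only in the alternatives, as a threshold and as a measure of height. No peak was dropped, although the cutoff is 1e-05 in the file headers and 1e-08 in the methods. At most 1 duplicate tag per position was kept for MAX and 2 for BMAL1, and the 2 lists were never compared in height.

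Summits were assigned to the TSSs of every transcript in release 44 of GENCODE, in its GRCh37 version (the same assembly as hg19). Protein-coding genes were those on chromosomes 1 to 22, X and Y; features of canonical promoters (250 bp upstream to 50 bp downstream) cover the 19881 with a canonical transcript. All 37 names and all 58 other pathway names matched. Motifs were counted on the hg19 reference. With 1 library for each antibody no test was made, and counts are set beside the same counts over all protein-coding genes. Wilson and exact Poisson intervals cover counting error only, and a gene without a listed peak had none strong enough to be called at these depths. Every member is named; other pathway genes are named when BMAL1 was listed at their promoter or when they were among the 5 highest in MAX. The members and lists were chosen with earlier results of these data known, and the classes by TSS number, CpG content and chromosome, and the motifs other than CACGTG and CACGTT, were chosen after the peak lists had been seen. Assignment was tested on simulated peaks. Tools were pysam 0.24.0, scipy 1.17.1, pandas 2.3.3, numpy 2.4.6 and, for plots, matplotlib 3.10.9, under Python 3.11.15. The alternatives covered the promoter window, the TSS set, the gene assignment, the thresholds on p and fold enrichment, the measure of height, and the motif and its window.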

Additional observations from a re-analysis of the deposited data

How the results depend on the processing

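The number of members with a MAX promoter peak, 28, ranged from 21 at a −log10 p of at least 12 (where GAPDH, PFKM, PFKP, PGAM1, PKM, RPE and TALDO1 dropped out and the share of all protein-coding genes was 23.4%) to 32 with summits within 5 kb (where HKDC1, PFKFB1, PFKFB2 and PFKL came in and that share was 41.6%). With 1 canonical TSS per gene it was 24, without GPI, PGAM1, SLC16A3 and SLC2A3, beside 31.9% of all genes. With summits within 300 bp it was 25, beside 29%. The BMAL1 count and the count with both factors each became 2 within 5 kb, since the PFKFB3 intron peak was then included, and stayed at 1 under the other alternatives. The number with a MAX peak in the gene body only, 2, became 4 with summits within 300 bp, 4 with peaks touching the 300 bp around a TSS, 6 with canonical TSSs and 0 within 5 kb, by construction, as peaks passed between the promoter and gene-body classes. The share of member summits with an E-box was 17.5% in 100 bp windows (12.9% over all promoter peaks) and 37.5% in 400 bp windows (26.5%). In all, 53 alternative values stayed within their limits and 6 moved. For the MAX promoter count those limits were wide, since 21 and 32 both counted as within them. They were wide for the E-box share too, from 17.5% in 100 bp windows to 38.5% at a −log10 p of at least 12. The member median fold enrichment ran from 10.9 with summits within 5 kb to 14.8 at that threshold (10.1 and 12.4 over all promoter peaks). The tally therefore does not show that these results are stable. The values that moved all belonged to counts of 1 or 2 in the main setting. No paired analysis was possible because there is 1 library for each antibody, and for the same reason no library could be left out. The depth limits what many of these peaks can show: at 11 to 21 fragments the upper bound of a fold enrichment is over 1.5 times its value. The median pileup of the member promoter peaks was 19.5.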

Other observations

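The core ACGTG outside a full E-box, part of the element bound by the hypoxia factor HIF1, was found in the 200 bp at the canonical TSS of 11 of the 37 genes (29.7%, Wilson 95% interval 17.5% to 45.8%) and of 11% of all protein-coding genes. At the MAX promoter summits the shares were 17.5% for the members and 16.7% for the whole list. At the gene-body summits of MAX, CACGCG was present at 4 of 23 member peaks (17.4%, interval 6.98% to 37.1%). It was present at 5.37% of the gene-body peaks over 1 kb from every TSS of any protein-coding gene. The 23 were not limited in that way. Of the 4, the PFKFB2 peak lies 407 bp from the TSS of YOD1 and a PFKFB3 peak 1061 bp from its canonical TSS. At all MAX promoter summits the CACGCG share was 18.7%. These motifs were counted after the peak lists had been seen, and the values are descriptions with no test.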
